A study of Sycon ciliatum with 26 samples.

Results

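Regenerated Sycon ciliatum structures at their latest, juvenile-like stages were set against cells freshly dissociated from a whole adult animal. The juvenile side comprised 5 libraries, 3 of days 16 to 18 after dissociation (stage name PJUV in the labels) and 2 of days 21 to 24 (stage name JUV). The adult side comprised 1 library, so no gene was tested between both sides, and differences are described without a replicate check on the adult side. A gene ID was a member of the comparison when its adult level lay at least 4-fold outside the range of all 5 juvenile libraries. Levels are given in CPM, read counts scaled to a common library total, with totals adjusted over all 26 libraries by TMM, the trimmed mean of M-values. For the rule every value was held at no less than 3 counts, which a library showing 0 counts could still hold. Of 35307 gene IDs, 3084 were members, 2085 higher and 999 lower in the adult library.

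Sycon ciliatum is a calcareous sponge, an animal of few cell types without organs. Flagellated choanocytes line its chambers and pump water, flat pinacocytes cover its surfaces, and sclerocytes secrete calcite spicules. Dissociated sponge cells can aggregate and rebuild a feeding animal, and the series title poses the question of how far this regrowth resembles development after larval settlement. The remaining 20 libraries trace that course, with 2 each at day 1 and day 2, 6 each at days 3 to 4 and days 6 to 8, and 4 at days 10 to 14. All of them are regenerating structures. The labels name no parent animal for any library and no cell sorting. The adult material was a cell suspension and the juvenile material whole structures, so age, animal and tissue state cannot be told apart here.

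The gene IDs carry no gene names. None of them (0 of 35307) matched the table of 26717 RefSeq genes for the assembly ocSycCili1.1, so neither marker genes of cell types nor pathways could be read, the juvenile and adult labels could not be checked against markers, and no sequence is shown. Groups of members are therefore described by direction, level and course, with 2 IDs in each direction given in full. In bulk RNA, fewer cells of a type and less RNA per cell cannot be told apart.

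The adult library held 11398214 counts and the juvenile libraries 11863223 to 15395912. The adult library had 26968 IDs with a count and the juvenile libraries 26369 to 26915. Its TMM factor, 0.824, was below those of the 25 regenerating libraries (0.876 to 1.15). Over the 19128 IDs with a mean of at least 1 CPM in these 6 libraries, the median log2 difference of adult minus juvenile was -0.12 under TMM and -0.48 on unscaled totals, so scaling moved the whole distribution by more than 0.1. In none of the 10 pairs of juvenile libraries did the counts agree within sampling noise (lowest chi-square 15.05 per ID), and each library was counted as a replicate. Whether libraries came from separate cultures is not stated, so spreads and p-values cover the variation among these samples.

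Gene IDs higher in the adult library made up 5.91% of all IDs, and 10.9% of the 19179 IDs with enough adult counts to pass the rule. Those higher in the juvenile libraries made up 2.83% of all IDs, and 6.53% of the 15301 IDs that could pass. The adult-high members also stood further apart. Their median gap between the adult level and the nearest juvenile library was 8.81-fold (quartiles 5.605 and 17.1), and 93 of them lay at least 64-fold apart. The juvenile-high members had a median gap of 6.04-fold (quartiles 4.78 and 8.99), and 8 lay at least 64-fold apart. Moderate differences made up more of that list, as 697 of the 999 (69.8%) lay under 8-fold, against 941 of the 2085 (45.1%).

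**Figure D1:**
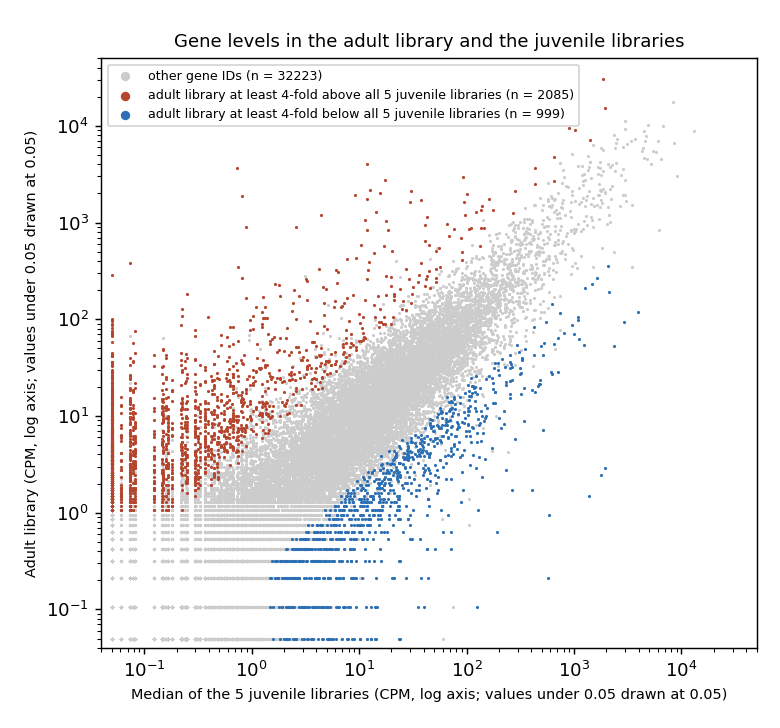
Each point is 1 of 35307 gene IDs, with the median of the 5 juvenile libraries on the x axis and the adult library on the y axis, both in CPM on log axes. The 2085 adult-high members (red) reach further from the cloud of other IDs than the 999 juvenile-high members (blue).

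Many adult-high members were at or near silence in the juvenile libraries. Of the 2085, 865 (41.5%) had at most 3 counts in each of the 5 juvenile libraries and 373 had 0 counts in all 5, which allows a level of up to 0.183 to 0.249 CPM per library. The reverse was seen for fewer members, as 248 of the 999 juvenile-high members (24.8%) had at most 3 counts in the adult library and 43 had 0, which allows up to 0.319 CPM. Adult-high members had a median adult level of 5.43 CPM. Among them, 36 reached 1000 CPM, 110 lay between 100 and 1000 CPM and 1389 were under 10 CPM. For juvenile-high members the lowest of the 5 juvenile libraries had a median of 8.86 CPM, and 5 members held at least 1000 CPM in every juvenile library. The 5 juvenile libraries spread by a median ratio of highest to lowest of 1.66 in the adult-high list and 2.08 in the juvenile-high list, against 1.75 over the 19128 measured IDs. These ratios used values held at 3 counts. For the 865 adult-high members at that limit in all 5 libraries they reflect the scaled library totals only.

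Both lists shaded into the genes just short of the rule. The adult-high member nearest the threshold had a gap of 4.0005-fold, with 7.13 CPM in the adult library and at most 1.78 CPM in a juvenile one, and the nearest non-member had 3.9813-fold, with 1.70 CPM against at most 0.428 CPM. On the juvenile-high side the nearest member had 4.0011-fold, with 19.6 CPM in the adult library and 78.3 CPM or more in the juvenile ones, and the nearest non-member 3.9995-fold, with 6.28 CPM against at least 25.1 CPM. Counting error alone also bears on the edge. When the exact Poisson 95% intervals of the counts had to lie 4-fold apart, 1037 adult-high and 359 juvenile-high members were left. On unscaled totals the lists held 1714 and 1445 IDs, so the adult-high share of all members was 54.3% in place of 67.6%.

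For scale, the same rule was applied with each earlier library in the adult's place. The libraries of day 1 stood above the juvenile range for 1642 and 1925 IDs and below it for 675 and 1387. Those of days 10 to 14 stood above it for 95 to 208 IDs and below it for 68 to 234. The adult library, with 2085 IDs above the juvenile range, had more than any of these 20 libraries, while its 999 below were fewer than in replicate 1 of day 1 (1387) and replicate 1 of day 2 (1199). This ranking holds for TMM scaling, under which the adult library had the lowest factor. On unscaled totals the adult library had 1714 IDs above the range and 1445 below it, and the 20 libraries were not ranked on that scale. A deeper library has a lower 3-count limit, and replicate 1 of day 1, with 26087749 counts, was the deepest.

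The members took different parts of the RNA on each side, in directions fixed in advance by the member rule. The shares describe the size of these parts and are no separate evidence of a difference. The adult-high members held 15.7% of all counts in the adult library and 1.78% ± 0.304 (SD, n = 5) in the juvenile ones, where they ranged from 1.46% to 2.25%. The 10 most abundant adult-high members alone held 7.48% of the adult counts. The juvenile-high members held 0.537% of the adult counts and 8.40% ± 2.36 (SD, n = 5) of the juvenile counts. Their share was 5.94%, 6.30% and 11.4% in replicates 1, 2 and 3 of days 16 to 18, and 10.0% and 8.31% in replicates 1 and 2 of days 21 to 24. Replicate 3 of days 16 to 18 had the highest share, and all 5 lay more than 10-fold above the adult value.

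In the earlier libraries, which the rule did not use, the shares of both lists differed by window. The rule did use the juvenile libraries that follow these windows, so the courses are given as a description. The share of adult-high members was 10.2% and 9.36% in replicates 1 and 2 of day 1, and 7.75% and 5.69% in those of day 2. It averaged 4.89% ± 1.44 (SD) in the 6 libraries of days 3 to 4, then 3.25% ± 0.958 (SD) in the 6 of days 6 to 8 and 2.83% ± 0.731 (SD) in the 4 of days 10 to 14. Each of these window means was lower than the one before it. Replicate 3 of days 6 to 8, at 2.23%, and replicate 4 of days 10 to 14, at 2.14%, lay within the juvenile range. The juvenile-high members held 1.51% and 3.21% at day 1 and 1.62% and 2.99% at day 2, already above the adult value in all 4 libraries. The corresponding means were 3.64% ± 0.874 (SD, 6 libraries) for days 3 to 4, followed by 4.76% ± 1.09 (SD, 6 libraries) for days 6 to 8 and 6.42% ± 0.474 (SD, 4 libraries) for days 10 to 14. Replicate 3 of days 6 to 8, at 6.58%, and replicates 2, 4 and 5 of days 10 to 14 were above the lowest juvenile library.

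**Figure D2:**
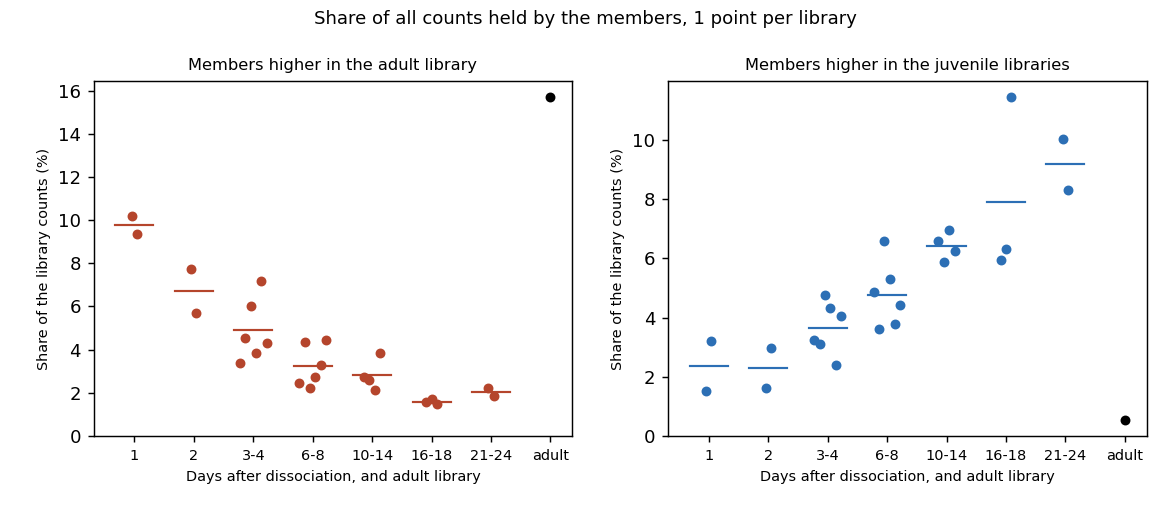
Share of each library's counts, in percent, held by the adult-high members (left) and the juvenile-high members (right), 1 point per library and window means as lines, with the adult library in black. The adult-high members held 15.7% of the adult counts and under 2.3% in every juvenile library, while the juvenile-high members held 0.537% in the adult library and 5.94% to 11.4% in the juvenile ones. The direction of this contrast follows from the member rule.

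The gap was then followed back through the course. It was called open from the earliest window after which the median level of every window lay at least 4-fold from the adult level on the juvenile side. All windows were set against the same adult library, and the gap at days 16 to 24 follows from the rule, so these counts are a description. For 784 of the 2085 adult-high members (37.6%) the gap was open from day 1 on. For 88 (4.22%) it opened at day 2, for 420 (20.1%) at days 3 to 4, for 379 (18.2%) at days 6 to 8, for 267 (12.8%) at days 10 to 14 and for 147 (7.05%) at days 16 to 18. Of the 999 juvenile-high members, 295 (29.5%) were apart from day 1 on, 25 from day 2, 244 (24.4%) from days 3 to 4, 209 (20.9%) from days 6 to 8, 148 (14.8%) from days 10 to 14 and 78 (7.81%) from days 16 to 18. The later classes include members whose gap was also seen at an earlier window and then closed. The share of all IDs that lay 4-fold from the adult library in each window is not given here. The shares of members are therefore not shown to be particular to them.

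**Figure D3:**
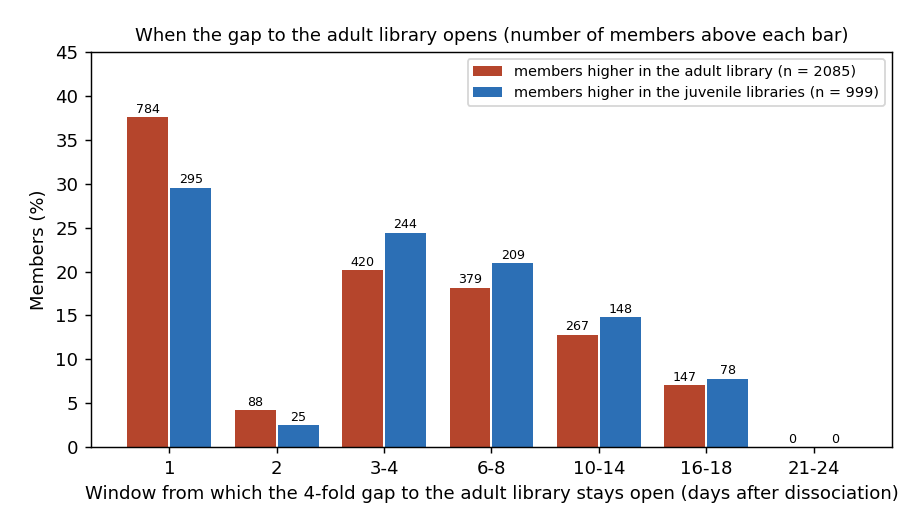
Percent of the members of each list (y axis, bars from 0) by the window from which the 4-fold gap to the adult library persists to the end (x axis, days after dissociation), with the number of members above each bar. In both lists the largest class was open from day 1, with 784 and 295 members, and no gap could open at days 21 to 24 because the rule covers days 16 to 24.

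The dates depended on how strictly a window was judged and on the libraries of the first days. When every library of a window had to lie 4-fold away, 353 adult-high and 108 juvenile-high members were apart from day 1 on. The labels number sample sets, and the adult library carries the number of set I. With libraries of set I only, 581 adult-high members were apart from day 1 on and for 1041 the gap opened at days 6 to 8 or later. The same restriction left 159 juvenile-high members apart from day 1 on, with 551 at days 6 to 8 or later (435 with all libraries). These counts are over the same 2085 and 999 members. Applied to the 2 juvenile libraries of set I alone, the member rule itself found 2530 adult-high and 1365 juvenile-high IDs.

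Adult-high members followed different courses by the window of opening. Those apart from day 1 on stayed low throughout, with a class median of -3.58 at day 1, -3.79 at days 3 to 4 and -4.11 at days 21 to 24 on the log2 scale relative to the adult library. Those whose gap opened at days 6 to 8 began above the adult library, with a class median of 2.32 at day 1, 0.58 at day 2 and -0.29 at days 3 to 4, before -2.64 at days 6 to 8 and -4.50 at days 21 to 24. In all, 445 of the 2085 (21.3%) lay at least 4-fold above the adult level at day 1, 76 at day 2, 27 at days 3 to 4 and 0 from days 6 to 8 on. Without the same share over all IDs, 21.3% cannot be called particular to this list. The median level of these 445 genes was 52.3 CPM at day 1, 15.9 CPM at day 2, 7.02 CPM at days 3 to 4, 1.06 CPM at days 6 to 8 and 0.216 CPM at days 21 to 24, against 6.17 CPM in the adult library. That the adult level lay below day 1 and above the juvenile stages follows from how these genes were chosen. A further pattern was a gap that closed and opened again, seen in 432 adult-high members (20.7%) and 134 juvenile-high members (13.4%). It bears on day 2, where 977 adult-high members lay 4-fold below the adult library, fewer than at day 1 (1125) and at days 3 to 4 (1421). Among the 1108 adult-high members with at least 5 CPM in the adult library the numbers at day 1 and day 2 were close, 562 and 552. Replicate 2 of day 2 was the shallowest library, with 7425481 counts.

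Few juvenile-high members ran the other way early on. At day 1, 23 of the 999 lay 4-fold below the adult level, and 587 (58.8%) lay within 4-fold of it. Members whose gap opened at days 6 to 8 had class medians of 0.57 at day 1, 0.48 at day 2 and 1.57 at days 3 to 4 on the log2 scale relative to the adult library, then 2.53 at days 6 to 8 and 3.16 at days 21 to 24. Members apart from day 1 on had a class median of 3.05 at day 1 and 3.72 at days 21 to 24. These medians are fixed in part by the definition of the class, and single libraries departed from them.

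**Figure D4:**
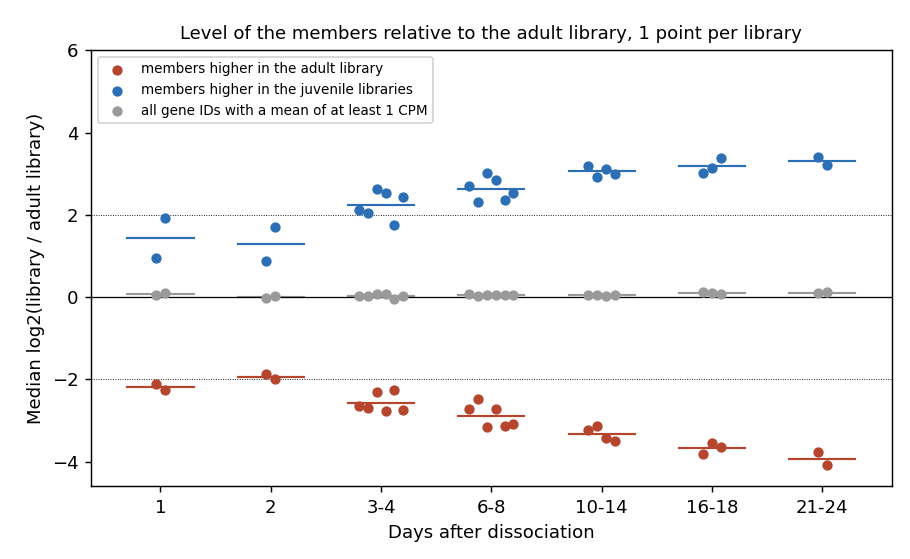
Median over members of the log2 ratio of a library to the adult library (y axis) by days after dissociation (x axis), 1 point per library, with window means as lines and dotted lines at the 4-fold limits of 2 and -2. The adult-high list had window means of -2.18 at day 1 and -3.92 at days 21 to 24, and the juvenile-high list of 1.43 and 3.31, while all measured IDs stayed between -0.05 and 0.12 in every library.

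The libraries of days 1 and 2 split by sample set in the juvenile-high list. Its median log2 ratio to the adult library was 0.94 and 0.87 in replicate 1 of day 1 and day 2, both of set I, and 1.91 and 1.72 in replicate 2 of these days, both of set II. In set II, 84 of the 999 juvenile-high members (8.41%) stood at least 4-fold above set I on both days, and 0 stood below it; over all 19128 measured IDs these counts were 162 (0.847%) and 59 (0.308%). The adult-high list split the other way, with 52 of 2085 members (2.49%) at least 4-fold higher in set I on both days and 0 higher in set II. At days 1 and 2 the set I libraries were thus on the side of the adult library in both lists, and it has the same set number. Later windows of the juvenile-high list did not keep this order. There the set I library had 2.12 at days 3 to 4 (window range 1.76 to 2.62) and 2.69 at days 6 to 8 (2.30 to 3.03). At days 10 to 14 it had 3.18, the highest of the window (2.93 to 3.18). The part of the sample set in the opening of the gap was not tested. Replicate 2 of day 2 has the same index sequence as the adult library, and what this means for the comparison was not tested either.

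Whether members changed during the first 14 days was tested in the 20 libraries that the rule did not use, with edgeR's quasi-likelihood test and Benjamini-Hochberg adjustment over the 23338 IDs tested. Between days 1 and 2 and days 10 to 14, 802 of the 2085 adult-high members (38.5%) fell and 38 (1.82%) rose. Of all IDs tested, 16.4% fell and 16.9% rose. The member shares are of all members, including 547 adult-high members with too few counts in these libraries to be tested, and the shares of all IDs are of those tested. By the filter, a tested member had to be present in at least some of them. Of the 999 juvenile-high members, 605 (60.6%) rose and 14 (1.40%) fell, with 2 not tested. With values held at 3 counts, the median log2 change was -1.18 over the adult-high list and 1.51 over the juvenile-high list, against 0.04 over the measured IDs. The choice of the lists limits this test. Adult-high members were chosen for low and juvenile-high members for high juvenile levels, relative to the adult library. The juvenile stages directly follow days 10 to 14, so the choice itself favours falls in the adult-high list and rises in the juvenile-high list. The test cannot separate this from a change particular to members, and its shares are no independent evidence of the gap.

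The same fit, with the same limit from the choice of the lists, was read for each step within this interval. Between days 1 and 2 and days 3 to 4, 296 adult-high members fell and 15 rose in the edgeR test, with 5.15% of all IDs falling and 5.74% rising. In that step 209 juvenile-high members rose and 3 fell. These counts leaned on single libraries: without replicate 1 of day 1, 155 adult-high members fell and 35 juvenile-high members rose, among 374 IDs that fell and 256 that rose of 24875 tested. Without replicate 1 of day 2 the members were 139 and 28, among 315 and 202 IDs of 24878. Without replicate 3 of days 3 to 4 the number of adult-high members that fell was 475, among 1696 IDs of 23316. Between days 3 to 4 and days 6 to 8, 403 adult-high members fell and 5 rose, with 4.7% of all IDs falling and 1.83% rising. Of the juvenile-high members, 61 rose and 4 fell in this step. The number that rose was 40, 32 and 33 without replicates 1, 2 and 5 of days 3 to 4, and 35, 94, 28 and 34 without replicates 1, 2, 3 and 4 of days 6 to 8. Over all IDs the number that rose was 426, and 322, 211, 193, 178, 612, 153 and 222 in the same order without these libraries. In the last step, from days 6 to 8 to days 10 to 14, no member passed in edgeR (0 of 23338 IDs, 0% background). At an unadjusted p under 0.05, 168 adult-high members were lower and 19 higher, and 120 juvenile-high members were higher and 3 lower, among 621 higher and 536 lower over all IDs tested. DESeq2 called 4 juvenile-high members higher in this step, among 10 IDs higher and 1 lower in all. Without replicate 3 of days 10 to 14, edgeR called 2 juvenile-high members higher, among 5 IDs. The median log2 change, with values held at 3 counts, was -0.63, -0.26 and -0.32 over the adult-high list in the 3 successive steps. It was 0.76, 0.39 and 0.40 over the juvenile-high list. In these medians, which include members near the 3-count limit, the last step was not smaller than the one before it. Among the members tested, the median fitted log2 change was -0.80, -0.96 and -0.70 in the adult-high list and 0.84, 0.35 and 0.37 in the juvenile-high list. By that measure the last step was the smaller one in the adult-high list only. Whether the steps differ was not tested.

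The IDs given in full were those of the largest gap in each direction among members with at least 10 CPM on the higher side, 1 with a gap from day 1 on and 1 whose gap opened at days 6 to 8 or later. This choice used the levels of all windows, so their courses are given here as a description. The outlier check of these IDs and the fitted change of MSTRG.21558 given further below carry the same limit. MSTRG.21558 was high in the adult library and nearly silent in all regenerating libraries. The adult library held 3561 counts of it, or 379 CPM (exact Poisson 95% interval 367 to 392). Replicates 1, 2 and 3 of days 16 to 18 held 1 count each, and the libraries of days 21 to 24 held 0. Every juvenile library was thus at or next to 0. Set against replicate 2 of days 16 to 18, the highest juvenile library, the adult level was 4784-fold higher (counting interval 858 to 189001), or 1524-fold when the juvenile value is held at 3 counts. It stood at 1.14 and 0.568 CPM in the libraries of day 1 and at 0.559 and 0.294 CPM at day 2. Later it ranged from 0.0945 to 0.820 CPM at days 3 to 4 (median 0.213) and from 0 to 0.941 CPM at days 6 to 8 (median 0.282). At days 10 to 14 replicates 2, 3, 4 and 5 held 2.61, 0, 0.152 and 0.0818 CPM, so that no regenerating library of any age came within 100-fold of the adult level.

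MSTRG.27131 crossed the adult level on its way down. It stood at 256 and 406 CPM in replicates 1 and 2 of day 1 and at 85.4 and 127 CPM at day 2, against 87.3 CPM in the adult library (exact Poisson 95% interval 81.4 to 93.4). The libraries of days 3 to 4 ranged from 9.83 to 627 CPM with a median of 127, and those of days 6 to 8 from 3.48 to 25.3 CPM with a median of 8.23. The 6 libraries of days 3 to 4 thus spanned both sides of the adult level, and all 6 of days 6 to 8 were below it. Replicates 2 to 5 of days 10 to 14 held 6.79, 2.53, 0.909 and 1.14 CPM. In the juvenile libraries it was at 0.0743, 0.554 and 0.221 CPM at days 16 to 18 and at 0.0829 and 0.428 CPM at days 21 to 24, with 1 to 7 counts each. The adult level was 157-fold above the highest of these (counting interval 76.0 to 393).

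MSTRG.15982 showed the largest gap of the juvenile-high list and came on late. Replicates 1, 2 and 3 of days 16 to 18 held 590, 695 and 753 CPM and the libraries of days 21 to 24 held 472 and 460 CPM. The adult library held 9 counts, or 0.958 CPM (exact Poisson 95% interval 0.438 to 1.82), so the lowest juvenile library was 481-fold above it (counting interval 253 to 1052). At day 1 it had 0.219 and 0.341 CPM, at day 2 it had 0 counts in both libraries, and at days 3 to 4 it ranged from 0 to 1.06 CPM with a median of 0.469. The libraries then diverged, with 10.0, 4.85, 79.5, 78.1, 0.536 and 1.03 CPM in replicates 1 to 6 of days 6 to 8 and 387, 159, 1.14 and 3.76 CPM in replicates 2 to 5 of days 10 to 14. Some libraries of a window had thus reached a high level while others of the same days were still near the adult value, and the juvenile libraries lay above all of them.

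MSTRG.13014 was the juvenile-high member of the largest gap among those called open from day 1. It held 21.1, 20.4 and 35.0 CPM in replicates 1, 2 and 3 of days 16 to 18 and 68.1 and 48.6 CPM at days 21 to 24, against 1 count or 0.106 CPM in the adult library (exact Poisson 95% interval 0.00269 to 0.593). The lowest juvenile library was 192-fold above the adult level (counting interval 34.2 to 7615), or 64.02-fold with the adult value held at 3 counts. Its early levels were uneven: 0.306 CPM in replicate 1 and 5.68 CPM in replicate 2 of day 1, and 0.279 and 2.50 CPM in replicates 1 and 2 of day 2. Replicates 1 to 6 of days 3 to 4 held 0.296, 0, 130, 8.88, 0.492 and 6.12 CPM. The gap at days 1 and 2 therefore rested on replicate 2 of each day, as replicate 1 was within the 3-count limit of the adult library (0.319 CPM). It ranged from 0.0962 to 12.2 CPM at days 6 to 8 (median 3.73) and stood at 77.9, 93.8, 1.97 and 85.3 CPM in replicates 2 to 5 of days 10 to 14.

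**Figure D5:**
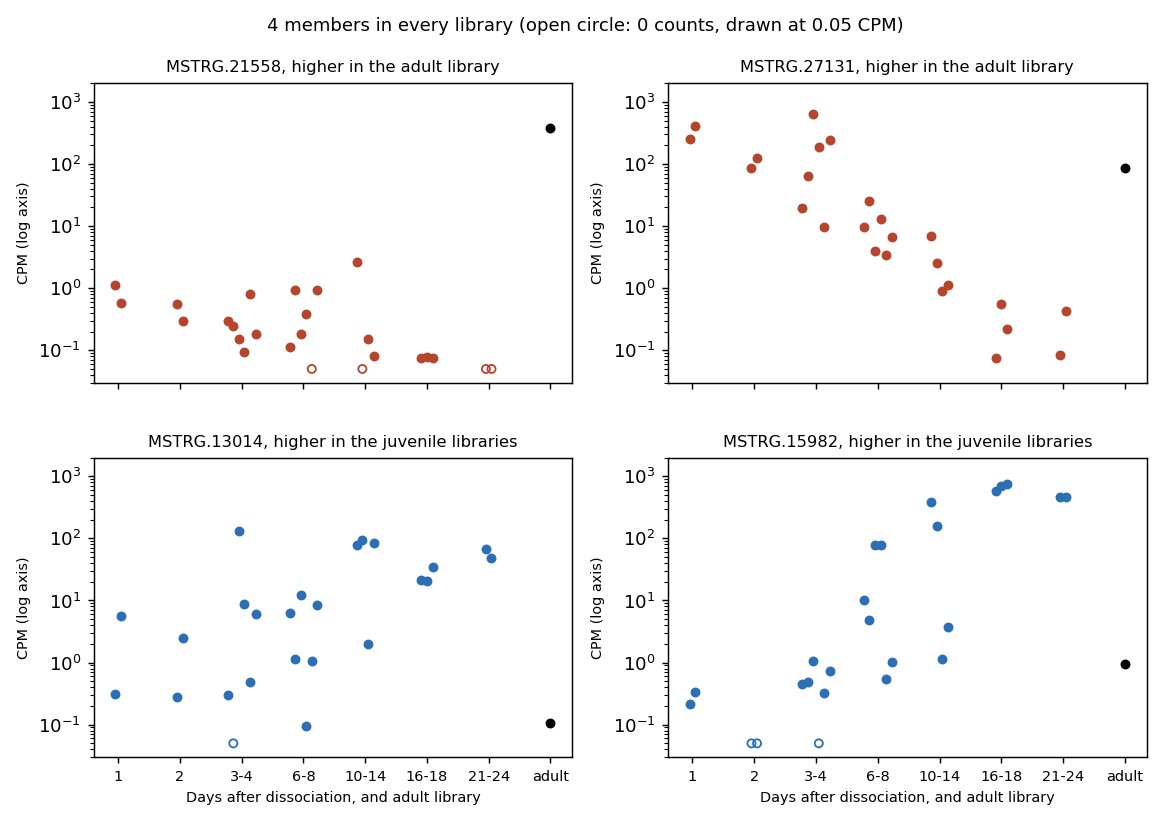
CPM on a log axis (y) of 4 members in each library by days after dissociation (x), with the adult library in black and open circles for libraries with 0 counts. MSTRG.21558 lies far below the adult level of 379 CPM throughout, MSTRG.27131 passes from above to below 87.3 CPM, and MSTRG.15982 and MSTRG.13014 end above the adult level after windows in which libraries differ widely.

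Members were often numbered next to each other. Of the 2085 adult-high members, 636 (30.5%) had another adult-high member as the ID just before or after in the numbering, whereas 3298 of the 33222 other IDs (9.93%) had an adult-high member there. The list formed 1717 separate runs of consecutive IDs, 66 of them of 3 or more, and the longest held 8. Of the 999 juvenile-high members, 173 (17.3%) had a juvenile-high neighbour, against 1769 of the 34308 other IDs (5.16%), and their longest run held 3. A juvenile-high neighbour was found for 88 adult-high members (4.22%), near the 5.16% over all IDs outside the juvenile-high list. An adult-high neighbour was found for 89 juvenile-high members (8.91%), near the 9.93% over all IDs outside the adult-high list. Each of the 4 IDs given in full had a member of its own list next to it. Consecutive IDs can be pieces of a single gene or overlapping models that share reads, so the number of IDs need not be the number of separate genes. The positions were not analysed here.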

How the data were processed

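Indexed libraries were made from Trizol-extracted RNA with the Lexogen SENSE mRNA-Seq kit, per the labels' protocols. The deposited values are raw read counts per gene ID, 1 table for each of 26 libraries. The submitters' processing notes name Trimmomatic 0.36, HISAT2, StringTie, featureCounts, DESeq2 and Bowtie2 without roles; genome build, gene models and strand setting are not given in the sources used here. Split or overlapping models and near-identical copies may share reads, so single IDs are uncertain to that degree. Totals were 7425481 to 26087749 counts.

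The members, lists, tests and rules were chosen with earlier results of these data known. CPM used TMM-scaled totals over the 26 libraries (edgeR 4.0.16, limma 3.58.1, R 4.3.3), with TMM factors from the 25925 IDs that passed filterByExpr. Each value was held at no less than 3 counts in its library. Members needed a 4-fold gap between the adult value and the nearest of 5 juvenile values. Intervals (exact Poisson, or conditional binomial for ratios, 95%) cover counting error only. A gap was open in a window when the window median lay 4-fold from the adult value.

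The 20 libraries of days 1 to 14 were fitted with edgeR's quasi-likelihood F test (filterByExpr, TMM, robust = TRUE, time window as the factor, two-sided, Benjamini-Hochberg threshold 0.05). Named IDs, 2 per direction, were those of the largest gap with at least 10 CPM on the higher side, 1 open from day 1 and 1 opening at days 6 to 8 or later. Alternatives were DESeq2 1.42.0, other scalings, folds, filters and minimums, replicate blocks, sample set I alone and leaving out each library. Those of the opening windows by scaling, by a minimum of 5 CPM and by left-out library, and those of the named IDs' fitted changes, were chosen after seeing the data. Python 3.11.15, NumPy 2.4.6, pandas 2.3.3, SciPy 1.17.1 and matplotlib 3.10.9 were used.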

Additional observations from a re-analysis of the deposited data

Results flagged for a closer look

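In windows of 4 to 6 libraries, and over the 5 juvenile libraries, the highest and lowest values of the 4 IDs and of the list summaries were compared with the rest by Dixon's test. Of 32 such sets, 3 had a library beyond the 95% critical value, where chance gives about 1 in 20 for normally distributed values, and several sets share libraries. MSTRG.21558 stood at 0.8196 CPM in replicate 5 of days 3 to 4, against 0.0945 to 0.296 CPM in the other 5 libraries. The same ID stood at 2.613 CPM in replicate 2 of days 10 to 14, against 0 to 0.152 CPM in the other 3. MSTRG.13014 stood at 130.3 CPM in replicate 3 of days 3 to 4, against 0 to 8.88 CPM in the other 5.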

How the results depend on the processing

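With 1 adult library, every count of members rests on that library, and levels near 3 counts limit the shallow libraries most. The number of adult-high members (2085) was 1144 at 8-fold, 4080 at 2-fold, 1108 with at least 5 CPM on the higher side, 696 with at least 10 CPM and 1037 with Poisson intervals 4-fold apart. The number of juvenile-high members (999) was 302, 2888, 644, 462 and 359 in the same order, 2134 without a limit of 3 counts and 1750 against days 21 to 24 alone. Leaving out 1 juvenile library gave 2162 to 2232 and 1028 to 1119 members. The number apart from day 1 on was 353 adult-high and 108 juvenile-high when every library of a window had to lie 4-fold away, 1228 and 571 at 2-fold, and 459 of 1108 and 189 of 644 at 5 CPM or more; in sample set I alone 159 juvenile-high members were apart from day 1 on. The gap opened at days 6 to 8 or later for 1593 and 783, 467 and 172, and 428 and 271 members under the first 3 of these. Without single libraries of days 1 to 14 the number apart from day 1 on was 749 to 835 and 210 to 311, and the later openings 784 to 822 and 402 to 478.

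In the edgeR tests of days 10 to 14 against days 1 and 2, 515 adult-high members fell among those at 5 CPM or more. With a mean of at least 5 CPM over the libraries, 451 fell. Over all IDs, 3822 of 23338 tested fell in the first case and 2715 of 12884 in the second. Leaving out 1 library gave 657 to 820 adult-high members that fell and 439 to 632 juvenile-high members that rose. Over all IDs, 2676 to 3848 then fell and 2386 to 4132 rose. For days 3 to 4 against days 1 and 2 the adult-high number was 197 at 5 CPM or more, 164 with a mean of at least 5 CPM, and 139 to 475 without 1 library. Over all IDs the number that fell was 1202 of 23338, 952 of 12884, and 315 to 1696 in the same order. DESeq2 raised the juvenile-high number of that step from 209 to 319, and the number over all IDs from 1339 to 2164. Left-out libraries gave 28 to 262 juvenile-high members, with 202 to 1756 rising over all IDs. For days 6 to 8 against days 3 to 4, 264 adult-high members at 5 CPM or more fell (320 to 429 of the whole list without 1 library). In DESeq2 115 juvenile-high members rose (28 to 94 in edgeR without 1 library). Over all IDs, 1097 fell with all libraries and 624 to 1283 without 1 library. The number that rose over all IDs was 805 in DESeq2, and 153 to 612 in edgeR without 1 library. For days 10 to 14 against days 6 to 8, DESeq2 called 4 juvenile-high members and left-out libraries gave 0 to 2, with 0 adult-high members throughout these. The cause of these shifts was not tested, apart from settings that by construction keep fewer IDs or libraries.

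Over days 1 to 14 as a whole the replicate numbers did not meet the bar for pairing, although the sets differed in both lists at days 1 and 2: the correlation of deviations from window means ran from -0.404 to 0.551 over 26 same-numbered pairs by the title (median 0.0189), and 7 of 20 libraries correlated best with their own number. With the replicate number as a block, the step to days 3 to 4 gave 147 falling adult-high members by the title and 130 by the sample set. The rising juvenile-high members were 54 and 65. Over all IDs, 350 and 375 fell with these blocks, against 1202 without a block, and 468 and 511 rose, against 1339. The gap of each of the 4 IDs kept its direction in every scaling and without any 1 juvenile library. The fitted log2 change of MSTRG.21558 from days 1 and 2 to days 10 to 14 was 0.19 (edgeR adjusted p 0.913). It turned to -2.78 without replicate 2 of days 10 to 14 (edgeR adjusted p 0.0728) and ranged up to 0.598 over the left-out libraries. Neither of these 2 fits passed the threshold.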
